A study of Mus musculus with 9 samples.

Results

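The 10 genes described here encode feedback inhibitors of the kinase ERK and the ETV transcription factors that are switched on with them. They are the dual specificity phosphatases Dusp4, Dusp5, Dusp6 and Dusp7, the Sprouty genes Spry1 and Spry2, the Spred genes Spred1 and Spred2, and Etv4 and Etv5. They were taken by gene symbol from a list that uses no measured value, though written with earlier results of these data known, and all 10 were found among the 55536 genes of the deposited expression table. A gene was tested when it reached 1 TPM (a transcript level scaled to gene length and to the library total) in at least 3 libraries. Of the 10 genes, 9 passed and Dusp4 did not, among 13722 genes tested.

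Mouse acute myeloid leukemia cells made with the MLL-AF9 fusion and marked by GFP were infected with a blank BFP retrovirus (MA9) or with a BFP retrovirus that also carries IL-34 (MA9-IL-34). Each C57BL/6J recipient, 6 to 8 weeks old and not irradiated, received 100000 double positive cells, and leukemia cells were sorted from bone marrow on day 18. MA9 cells were divided by the surface receptor c-Kit into an MA9-c-Kit- and an MA9-c-Kit+ fraction, and per the labels the MA9-IL-34 cells were c-Kit+ as well. The article names c-Kit fractions for the MA9 cells only, so whether MA9-IL-34 cells were sorted by c-Kit is unclear. The 3 groups held 3 RNA-seq libraries each, and the transplanted cells of all groups carried MLL-AF9, GFP and BFP. Nothing in the labels ties libraries to separate animals, and p-values thus reflect no more than the scatter of these 9 samples, which may be technical. IL-34 was present in 1 infected cell population only, so that IL-34 and the history of that population cannot be told apart.

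Growth factor receptors such as c-Kit, FLT3 and the M-CSF receptor Csf1r, which also binds IL-34, signal through RAS to the kinases RAF, MEK and ERK. Active ERK induces its own brakes. The dual specificity phosphatases take the activating phosphates off ERK, while Sprouty and Spred proteins act further up, at the level of RAS and RAF. Etv4 and Etv5 are ETS family transcription factors induced by the same signal, and the transcripts of these families are widely used as a readout of ERK output.

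Kit, the gene of the sort, ranged from 1.63 to 2.90 TPM in MA9-c-Kit-, from 70.6 to 135 TPM in MA9-c-Kit+ and from 90.5 to 112 TPM in MA9-IL-34 libraries, in the order the labels give. The myeloid genes Hoxa9, Meis1, Mpo and Elane were present in all 9 libraries, while Cd3e, which defines T cells, stayed below 0.4 TPM. Mpo was at 26.83 to 152.66 TPM in MA9-c-Kit- and at least 1639 TPM in the other libraries. The B cell markers Ighm and Cd79b reached 238.58 and 41.53 TPM, and the stroma marker Lepr 68.67 TPM. Other markers of those 2 lists stayed at 1.05 TPM or less. Among neutrophil markers, Mmp8 was at 162 to 211 TPM in MA9-c-Kit- and 0.96 TPM or less in the other libraries, while Camp was lowest in MA9-c-Kit-. Between 12577 and 12972 genes reached 1 TPM per library, and depth is unknown because TPM does not keep it. A pair of libraries stood apart from their groups. In MA9-c-Kit+ replicate 2, mitochondrial transcripts took 5.10% of the total against 10.7% and 11.1% in the other MA9-c-Kit+ libraries, and Csf1r reached 141 TPM against 40.8 and 25.6 TPM. In MA9-c-Kit- replicate 3, the 5 erythroid markers summed to 1511 TPM against 10.1 and 30.7 TPM. Calls of the 10 genes that change without either library are given with and without it.

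Promoter sequences of the members most used below are printed to show what lies before their start sites. They come from RefSeq on GRCm38.p6, where 8 of the 10 genes matched with 9 promoters, and each is the stretch of up to 250 bases before the start, read 5′ to 3′. Dusp5 is shown because it holds a motif. Dusp6 and Spred1 are shown because their levels separated MA9-IL-34 from both other groups. Those of Dusp7, Spry1, Spred2 and Etv5 did so too, but their promoters are not printed. Spry2 is shown because its level separated MA9-c-Kit- from both c-Kit+ groups. Capitals mark the CArG box, the site of serum response factor. Bases inside the GENCODE gene were left off for Dusp5, which leaves 214.
Dusp5: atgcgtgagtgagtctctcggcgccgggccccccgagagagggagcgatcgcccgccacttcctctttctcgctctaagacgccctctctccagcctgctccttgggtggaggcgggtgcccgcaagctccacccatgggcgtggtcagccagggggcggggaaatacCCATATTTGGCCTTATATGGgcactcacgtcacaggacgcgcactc
Dusp6: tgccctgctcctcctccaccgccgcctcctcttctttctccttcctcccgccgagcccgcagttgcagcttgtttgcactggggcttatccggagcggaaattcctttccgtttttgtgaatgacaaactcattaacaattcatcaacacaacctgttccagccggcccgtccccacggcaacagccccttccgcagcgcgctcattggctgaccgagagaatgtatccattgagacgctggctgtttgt
Spred1: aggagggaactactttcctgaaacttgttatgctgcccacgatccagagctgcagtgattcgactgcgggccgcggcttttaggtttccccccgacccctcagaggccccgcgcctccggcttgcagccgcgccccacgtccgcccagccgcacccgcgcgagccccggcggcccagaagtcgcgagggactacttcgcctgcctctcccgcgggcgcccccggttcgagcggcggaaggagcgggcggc
Spry2: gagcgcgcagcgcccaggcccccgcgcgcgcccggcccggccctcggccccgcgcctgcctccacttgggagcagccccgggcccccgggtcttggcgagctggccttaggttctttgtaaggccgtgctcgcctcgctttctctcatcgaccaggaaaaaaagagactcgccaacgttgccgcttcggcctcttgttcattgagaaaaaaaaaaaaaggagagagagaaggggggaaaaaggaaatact

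The regions are chr19:53528895-53529108 on the + strand for Dusp5, chr10:99262981-99263230 on the + strand for Dusp6, chr2:117120821-117121070 on the + strand for Spred1 and chr14:105896820-105897069 on the - strand for Spry2. Both strands of the 250 bases were searched for CCGGAA (a strict form of the ETS site), TGANTCA (AP-1), TGACGTCA (CRE) and the CArG box. The first 3 motifs were found in none of the 9 promoters, against 12.03%, 6.75% and 1.55% of all 32851 RefSeq promoters. The shorter ETS core GGAA was not counted, and it occurs in each of the printed sequences. The CArG box was added to the search after the promoters of these genes were read, so its count is a description only. It was found in 1 of the 9, that of Dusp5, and in 1.47% of all promoters. The 2 copies in Dusp5 are adjacent, with first bases 82 and 72 bases before the start. Spry2 had 1 CCGGAA after its start, at base 33, a window of 50 bases that is not printed. GC content ran from 56.0% to 77.2% over the 9 promoters. A match is only a match of letters, and the data at hand measure no binding.

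**Figure D1:**
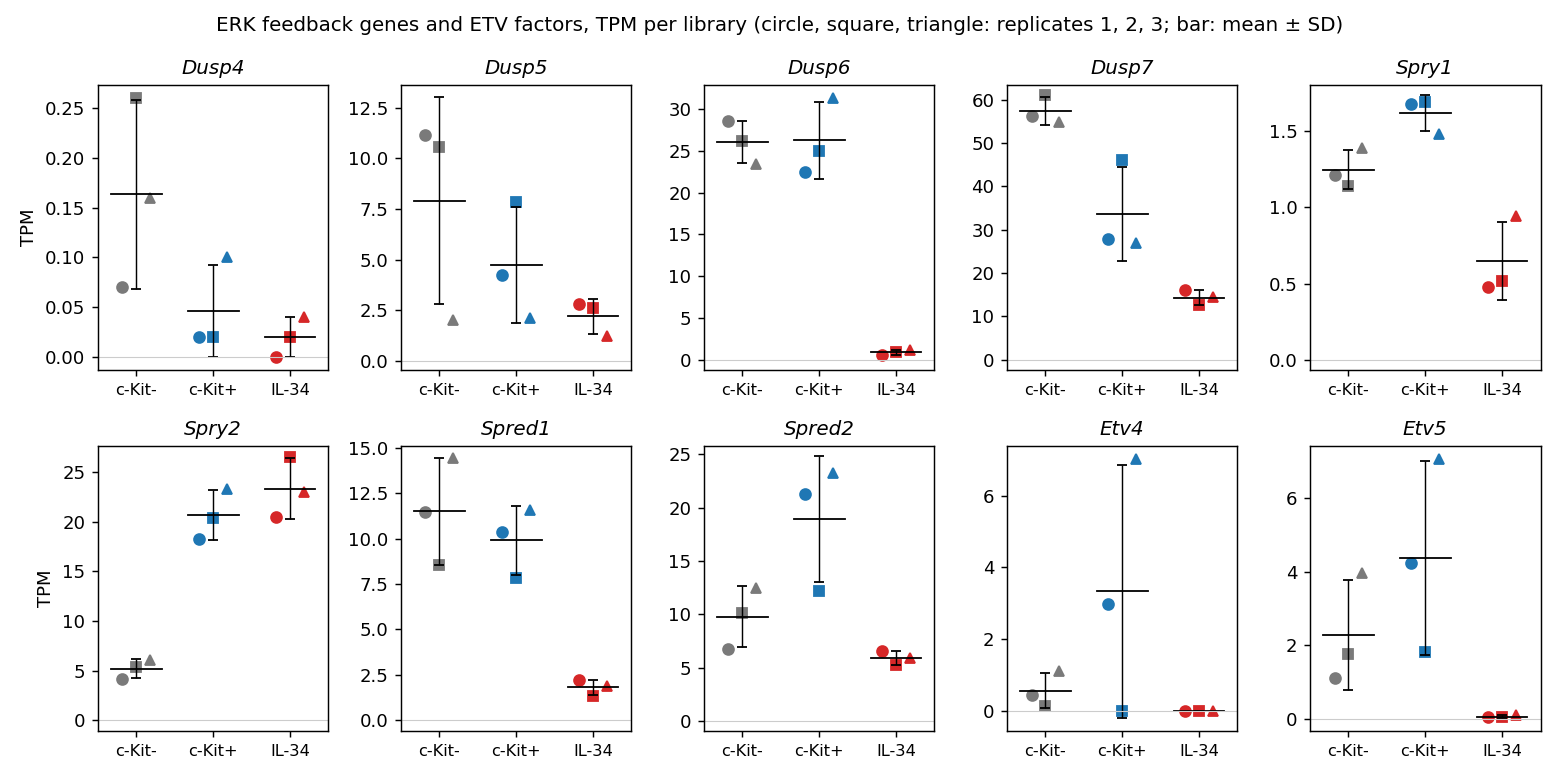
Expression of the 10 genes in each library, in TPM on a linear axis that differs between panels. Points are libraries (circle, square and triangle for replicates 1, 2 and 3), horizontal bars are means and vertical bars are 1 SD (n = 3). Dusp6 lay at 0.60 to 1.16 TPM in MA9-IL-34 and at 22.48 to 31.36 TPM in the other libraries, and Spry2 was low in MA9-c-Kit- cells only.

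The first question was whether ERK feedback genes differed with IL-34 among cells that the labels give as c-Kit+, MA9-IL-34 against MA9-c-Kit+. Here 5 of the 9 tested genes were lower in MA9-IL-34 cells and 0 were higher, against 3.38% of all tested genes called lower and 3.86% called higher. A gene counted as called, lower or higher, when its fold change was 2 or more with an adjusted p below 0.05 in limma (Benjamini-Hochberg adjustment over all 13722 genes). The genes lower were Dusp6, Dusp7, Spred1, Spred2 and Etv5, thus phosphatases, Spred genes and an ETV factor but no Sprouty gene. Spry1, Etv4 and Etv5 were below 1 TPM in all MA9-IL-34 libraries, so they passed the filter through the other groups only. The calls of Etv5 with MA9-IL-34 cells are thus not independent of the filter. The median log2 fold change of the 9 genes was -1.48, against 0.0097 over all genes tested. Fewer cells that express a gene and less of its RNA per cell cannot be told apart in these bulk samples. Log2 fold changes are on the log2(TPM + 1) scale, which understates changes of low genes.

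Dusp6 encodes a cytoplasmic phosphatase selective for ERK (ENSMUSG00000019960, chromosome 10 of GRCm38 from 99263231 to 99267489). Its levels were 22.48, 24.97 and 31.36 TPM in MA9-c-Kit+ replicates 1, 2 and 3, 28.57, 26.20 and 23.45 TPM in MA9-c-Kit- replicates 1, 2 and 3, and 0.60, 0.95 and 1.16 TPM in MA9-IL-34 replicates 1, 2 and 3. All 3 MA9-IL-34 libraries were far below the other 6, and the MA9-c-Kit+ values overlapped those of MA9-c-Kit-. The mean of MA9-c-Kit+ cells was 29.1 times that of MA9-IL-34 cells, a log2 fold change of -3.84 with a standard error of 0.18 (adjusted p = 3.23e-06, limma). With a pseudocount of 0.1 it was -4.74 (adjusted p = 7.79e-06, limma). Measured against MA9-c-Kit- cells, the ratio of means was 28.9 and the log2 fold change -3.84 (adjusted p = 7.58e-07, limma). The log2 difference of MA9-c-Kit+ against MA9-c-Kit- cells was 0.0016, with a 95% interval from -0.40 to 0.41 and an adjusted p of 0.996 (limma). Removing mitochondrial transcripts or rescaling by median ratios turned the sign of this near-zero value, to -0.0037 and -0.037.

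Dusp7, the close relative of Dusp6 (ENSMUSG00000053716, chromosome 9 from 106368632 to 106375724), had the highest TPM of the 4 phosphatases when summed over the 9 libraries. It stood at 56.15, 60.99 and 54.89 TPM in MA9-c-Kit-, 27.89, 46.17 and 27.01 TPM in MA9-c-Kit+ and 16.12, 12.53 and 14.38 TPM in MA9-IL-34 replicates 1, 2 and 3. The 3 groups did not overlap, and MA9-c-Kit+ replicate 2 was the highest of its group. For MA9-IL-34 against MA9-c-Kit+ cells it gave -1.14 on the log2 scale (standard error 0.20, adjusted p = 0.00554, limma). Without MA9-c-Kit+ replicate 2 this value was -0.90 (adjusted p = 0.00305, limma), short of the 2-fold minimum. Dusp7 was also lower when set against MA9-c-Kit- cells, at -1.93 (adjusted p = 7.41e-05, limma). MA9-c-Kit+ against MA9-c-Kit- cells gave -0.79 (adjusted p = 0.013, limma), again short of the minimum, and -1.04 (adjusted p = 0.000741, limma) without MA9-c-Kit+ replicate 2, which passed.

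Dusp5 encodes a nuclear phosphatase that is specific for ERK. It was at 11.15, 10.57 and 2.03 TPM in MA9-c-Kit-, 4.23, 7.84 and 2.15 TPM in MA9-c-Kit+ and 2.81, 2.61 and 1.23 TPM in MA9-IL-34 replicates 1, 2 and 3. Replicate 3 was the lowest of each group, and the groups overlapped. The log2 fold change was -0.75 for MA9-IL-34 against MA9-c-Kit+ cells, with a 95% interval from -2.02 to 0.52 (adjusted p = 0.465, limma), and no call was made. It was -1.27 against MA9-c-Kit- cells (adjusted p = 0.0897, limma). That value became -1.92 without MA9-c-Kit- replicate 3 (adjusted p = 0.0065, limma), which passed. MA9-c-Kit+ against MA9-c-Kit- cells gave -0.52 (95% interval -1.79 to 0.75). An antisense gene, AC137853.2, overlaps Dusp5 and reached at most 0.32 TPM. Gm42922 overlaps Spry1 in the same way and reached at most 0.28 TPM. The library kit does not keep strand.

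Dusp4, a nuclear phosphatase induced by ERK in many cell types, was close to 0 throughout. Its levels were 0.07, 0.26 and 0.16 TPM in MA9-c-Kit-, 0.02, 0.02 and 0.10 TPM in MA9-c-Kit+ and 0, 0.02 and 0.04 TPM in MA9-IL-34 replicates 1, 2 and 3. It was not tested.

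The makeup of the phosphatase transcripts differed between the groups. Dusp6 took 26.7% to 29.8% of the summed TPM of the 4 phosphatases in MA9-c-Kit-, 31.6% to 51.7% in MA9-c-Kit+ and 3.07% to 6.90% in MA9-IL-34 libraries. Dusp7 took 58.5% to 68.2%, 44.6% to 58.4% and 77.8% to 85.5% in the same order. The sum itself was 80.5 to 98.0 TPM in MA9-c-Kit-, 54.6 to 79.0 TPM in MA9-c-Kit+ and 16.1 to 19.5 TPM in MA9-IL-34 libraries. Of these 4 genes, Dusp7 had the highest level in MA9-IL-34 cells, although it too was lower there.

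**Figure D2:**
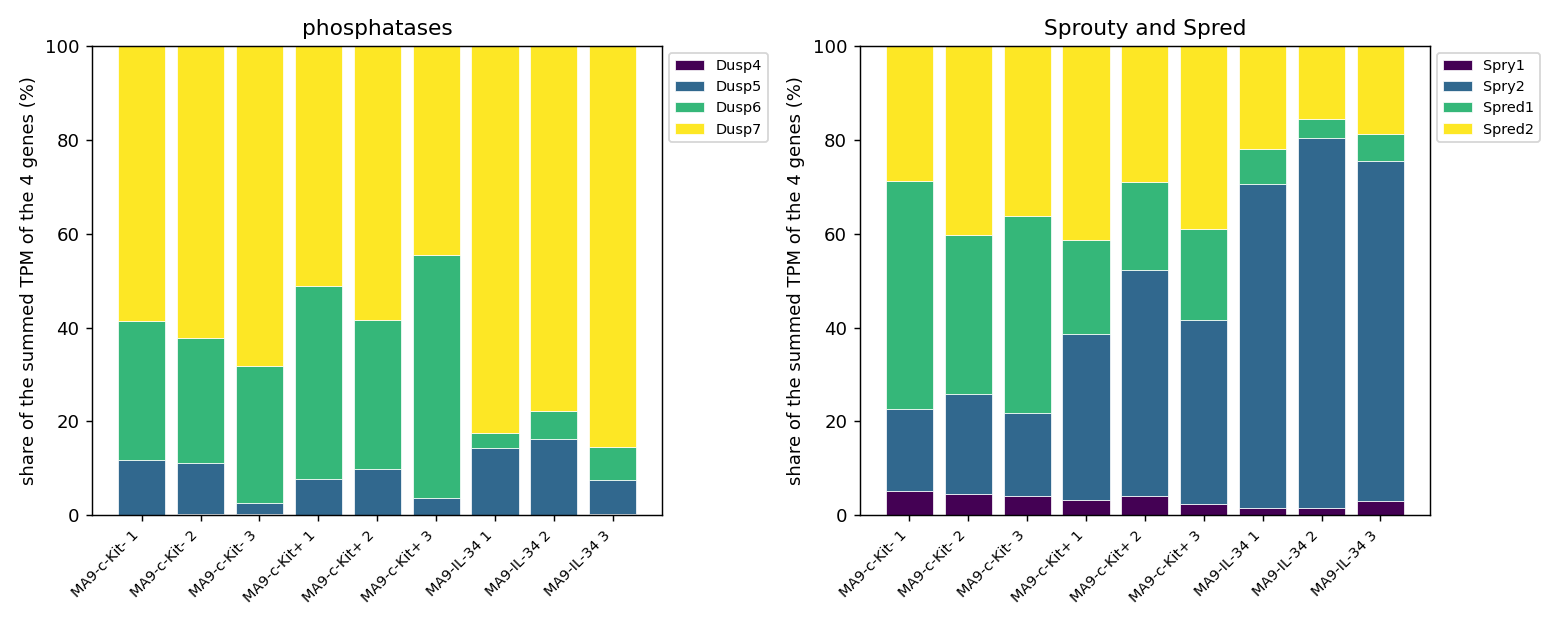
Share of each gene in the summed TPM of the 4 phosphatases (left) and of the 4 Sprouty and Spred genes (right), in percent, with 1 stacked bar per library. The Dusp6 share was 3.07% to 6.90% in the 3 MA9-IL-34 libraries and at least 26.7% in the others, and Spry2 took 68.9% to 78.8% of the Sprouty and Spred sum in MA9-IL-34 libraries.

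Sprouty and Spred genes did not move as 1 group. Spry2, an inhibitor of receptor tyrosine kinase signaling (ENSMUSG00000022114, chromosome 14 from 105891947 to 105896819), followed the c-Kit labels. It was at 4.16, 5.39 and 6.11 TPM in MA9-c-Kit-, 18.30, 20.33 and 23.31 TPM in MA9-c-Kit+ and 20.49, 26.54 and 23.00 TPM in MA9-IL-34 replicates 1, 2 and 3. The 3 MA9-c-Kit- libraries lay below all others, and the MA9-c-Kit+ and MA9-IL-34 libraries overlapped. For MA9-IL-34 against MA9-c-Kit+ cells the log2 difference was 0.17, with a 95% interval from -0.22 to 0.55 (adjusted p = 0.601, limma). Spry2 was higher than in MA9-c-Kit- cells by 1.97 in MA9-IL-34 cells (standard error 0.17, adjusted p = 2.68e-05, limma). MA9-c-Kit+ cells showed a rise of 1.81 (standard error 0.17, adjusted p = 0.000112, limma).

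Spry1, the related inhibitor, was low in all groups. Its levels were 1.21, 1.14 and 1.39 TPM in MA9-c-Kit-, 1.68, 1.69 and 1.48 TPM in MA9-c-Kit+ and 0.48, 0.52 and 0.94 TPM in MA9-IL-34 replicates 1, 2 and 3. The groups did not overlap, with MA9-IL-34 lowest and MA9-c-Kit+ highest. Its log2 difference of -0.68 for MA9-IL-34 against MA9-c-Kit+ cells (adjusted p = 0.0354, limma) was short of the 2-fold minimum. With a pseudocount of 0.1 it was -1.25 (adjusted p = 0.0416, limma) and passed. Spry1 gave -0.46 for MA9-IL-34 against MA9-c-Kit- cells (adjusted p = 0.0563, limma) and 0.22 for MA9-c-Kit+ against MA9-c-Kit- cells (adjusted p = 0.356, limma).

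Spred1 brings the RAS inactivator neurofibromin to the membrane (ENSMUSG00000027351, chromosome 2 from 117121374 to 117182279). It was at 11.48, 8.54 and 14.45 TPM in MA9-c-Kit-, 10.34, 7.84 and 11.56 TPM in MA9-c-Kit+ and 2.21, 1.36 and 1.87 TPM in MA9-IL-34 replicates 1, 2 and 3. As with Dusp6, all MA9-IL-34 libraries were below the other 6, which overlapped with each other. The mean of MA9-c-Kit+ cells was 5.47 times that of MA9-IL-34 cells, and the mean of MA9-c-Kit- cells 6.34 times. Its log2 fold change was -1.95 against MA9-c-Kit+ (standard error 0.23, adjusted p = 0.000643, limma) and -2.13 against MA9-c-Kit- cells (standard error 0.23, adjusted p = 9.24e-05, limma). MA9-c-Kit+ against MA9-c-Kit- cells gave -0.18, with a 95% interval from -0.70 to 0.33 (adjusted p = 0.561, limma).

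Spred2, its relative with the same kind of action on RAS (ENSMUSG00000045671, chromosome 11 from 19924375 to 20024026), had another order of levels. It was at 6.80, 10.14 and 12.43 TPM in MA9-c-Kit-, 21.33, 12.21 and 23.27 TPM in MA9-c-Kit+ and 6.54, 5.28 and 5.92 TPM in MA9-IL-34 replicates 1, 2 and 3. MA9-c-Kit+ replicate 2 fell within the range of the MA9-c-Kit- libraries, and all MA9-IL-34 libraries lay below both groups, the lowest MA9-c-Kit- library by a small margin. The log2 fold change was -1.48 for MA9-IL-34 against MA9-c-Kit+ cells (standard error 0.27, adjusted p = 0.00692, limma). It was -0.61 for MA9-IL-34 against MA9-c-Kit- cells (adjusted p = 0.0882, limma), which did not pass. MA9-c-Kit+ against MA9-c-Kit- cells gave 0.87 (adjusted p = 0.0308, limma), short of the 2-fold minimum. Without MA9-c-Kit+ replicate 2 the latter was 1.15 (adjusted p = 0.00582, limma), and without MA9-c-Kit- replicate 3 it was 1.05 (adjusted p = 0.0227, limma), and both passed.

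Spry2 took 17.6% to 21.4% of the summed Sprouty and Spred TPM in MA9-c-Kit-, 35.4% to 48.3% in MA9-c-Kit+ and 68.9% to 78.8% in MA9-IL-34 libraries. Spred1 went the other way, with 33.9% to 48.5%, 18.6% to 20.02% and 4.04% to 7.44%. The sum of the 4 genes was 23.7 to 34.4 TPM in MA9-c-Kit-, 42.1 to 59.6 TPM in MA9-c-Kit+ and 29.7 to 33.7 TPM in MA9-IL-34 libraries. The MA9-IL-34 and MA9-c-Kit- sums therefore overlapped, while the shares of the 4 genes in them differed.

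Ratios within a library do not depend on how libraries were scaled to each other. The ratio of Spry2 to Dusp6 was 34.2, 27.9 and 19.8 in MA9-IL-34, 0.814, 0.814 and 0.743 in MA9-c-Kit+ and 0.146, 0.206 and 0.261 in MA9-c-Kit- replicates 1, 2 and 3. It put the 3 groups in an order without overlap. The ratio of Spred2 to Spred1 was 2.96 to 3.88 in MA9-IL-34, 1.56 to 2.06 in MA9-c-Kit+ and 0.592 to 1.19 in MA9-c-Kit- libraries. The ratio of Dusp7 to Dusp6 was 12.4 to 26.9, 0.861 to 1.85 and 1.97 to 2.34 in the same order. Together with Spry2 to Spred1, 4 ratios were compared in 3 comparisons, after the levels were known. Each gave a two-sided exact permutation p of 0.1 before and after adjustment, the smallest that 3 against 3 libraries can give, so that none could pass 0.05.

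Etv5, of the PEA3 group of ETS factors (ENSMUSG00000013089, chromosome 16 from 22381309 to 22439719), was nearly silent in MA9-IL-34 cells. It was at 1.12, 1.77 and 3.98 TPM in MA9-c-Kit-, 4.25, 1.82 and 7.08 TPM in MA9-c-Kit+ and 0.04, 0.04 and 0.10 TPM in MA9-IL-34 replicates 1, 2 and 3. Every MA9-IL-34 library was below the other 6, and replicate 3 was the highest of each group. The mean ratio was 73.1 for MA9-c-Kit+ and 38.2 for MA9-c-Kit- over MA9-IL-34 cells, both resting on MA9-IL-34 values of 0.10 TPM or less. The log2 fold change was -2.22 against MA9-c-Kit+ (standard error 0.41, adjusted p = 0.00725, limma) and -1.54 against MA9-c-Kit- cells (standard error 0.41, adjusted p = 0.0121, limma). A pseudocount of 0.1 gave -4.63 and -3.74 (adjusted p = 0.00108 and 0.000866, limma). MA9-c-Kit+ against MA9-c-Kit- cells gave 0.68 (95% interval -0.24 to 1.60, adjusted p = 0.22, limma), and 1.08 without MA9-c-Kit+ replicate 2 (adjusted p = 0.0428, limma), which passed.

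Etv4, of the same PEA3 group, was listed at 0 in all 3 MA9-IL-34 libraries. It was at 0.44, 0.15 and 1.11 TPM in MA9-c-Kit- and at 2.98, 0 and 7.03 TPM in MA9-c-Kit+ replicates 1, 2 and 3. MA9-c-Kit+ replicate 2 was thus listed at 0 as well, and the gene passed the filter through 3 libraries only, those at 1.11, 2.98 and 7.03 TPM. No call was made (MA9-IL-34 against MA9-c-Kit+, adjusted p = 0.128, limma). Without MA9-c-Kit+ replicate 2 the log2 fold change was -2.50 for MA9-IL-34 against MA9-c-Kit+ cells (adjusted p = 0.00244, limma) and 1.90 for MA9-c-Kit+ against MA9-c-Kit- cells (adjusted p = 0.00396, limma), and both passed. Without MA9-c-Kit- replicate 3 Etv4 did not pass the filter.

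**Figure D3:**
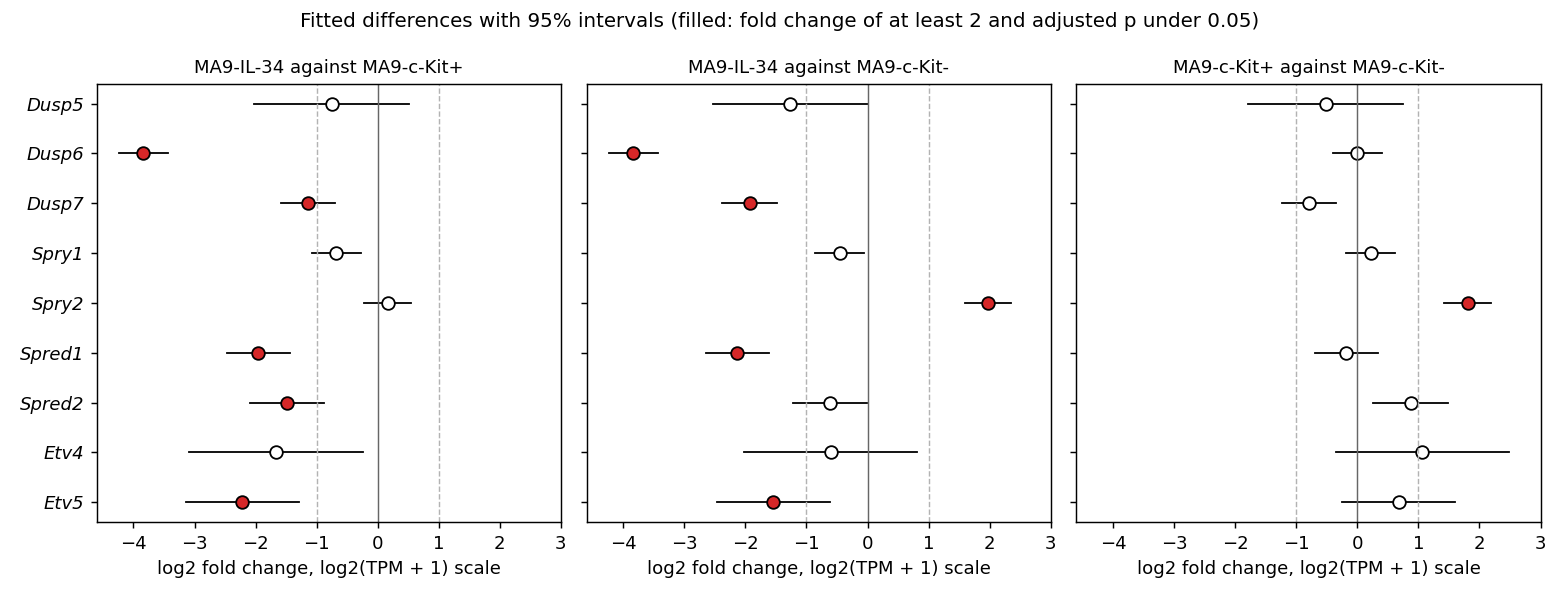
Fitted log2 fold changes of the 9 tested genes on the log2(TPM + 1) scale in the 3 comparisons, with 95% intervals from limma. Filled points passed the test and dashed lines mark a 2-fold change. Dusp6 lay at -3.84 in both panels with MA9-IL-34 cells and at 0.0016 for MA9-c-Kit+ against MA9-c-Kit- cells, and Spry2 lay at 1.97 and 1.81 against MA9-c-Kit- cells.

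Counted over the 9 tested genes, MA9-IL-34 against MA9-c-Kit- cells gave 4 lower (Dusp6, Dusp7, Spred1 and Etv5) and 1 higher (Spry2), against 12.7% of all tested genes lower and 11.3% higher. The median log2 fold change was -1.27, against 0.056 over all genes. MA9-c-Kit+ against MA9-c-Kit- cells gave 1 higher (Spry2) and 0 lower, against 5.66% of all genes higher and 9.15% lower, with a median of 0.22 against 0.031. A single call at this background says nothing of the 9 genes as a group. Without MA9-c-Kit+ replicate 2, 5 of the 9 genes passed there, with Spred2, Etv4 and Etv5 higher and Dusp7 lower beside Spry2. The share of all genes in that fit was 6.12% higher and 10.2% lower. With no minimum fold 3 passed, against 38.3% of all genes. All 3 comparisons share groups, so their counts are not independent. The summed TPM of the 10 genes was 120.0 to 125 in MA9-c-Kit-, 113.5 to 134 in MA9-c-Kit+ and 48.6 to 49.9 in MA9-IL-34 libraries.

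Markers of other cell types moved between the groups too. Of the 6 monocyte and macrophage markers, Csf1r and Cd68 (2 of 6) were lower for MA9-IL-34 against MA9-c-Kit+ cells. Adgre1 went the other way there without a call (1.38, adjusted p = 0.188, limma). Mertk, Ly6c2 and Ccr2 were not called (-0.17, -0.58 and -0.15). Against MA9-c-Kit- cells, 4 of the 6 were lower in each of these 2 groups. The 6 summed to 3042 to 5323 TPM in MA9-c-Kit-, 2040 to 4039 TPM in MA9-c-Kit+ and 1887 to 2001 TPM in MA9-IL-34 libraries. None was at 0 in all libraries. Ly6c2 made up most of the sum, with 1774 to 1867 TPM in MA9-IL-34 libraries. Without MA9-c-Kit+ replicate 2, the log2 fold change of Csf1r for MA9-IL-34 against MA9-c-Kit+ cells went from -2.06 to -1.37 (adjusted p = 0.0048, limma). Of the 6 markers of mast cells, basophils and eosinophils, 2 were higher for MA9-IL-34 against MA9-c-Kit+ cells (Cpa3 and Siglecf). Prg2, Mcpt8 and Ms4a2 were not called (1.85, -0.37 and -0.00019), and Epx was not tested. The 6 summed to 178 to 249 TPM in MA9-IL-34 and 48.4 to 76.0 TPM in MA9-c-Kit+ libraries. Siglecf made up most of the MA9-IL-34 sum, at 120 to 164 TPM. Cpa3 no longer passed without MA9-c-Kit- replicate 3 (adjusted p = 0.0602, limma). Of the 4 megakaryocyte markers, Gp9 was higher in MA9-IL-34 cells against both other groups, at 3.58 to 4.48 TPM, with 0.56 to 1.31 TPM in MA9-c-Kit+ and 0.10 TPM or less in MA9-c-Kit- libraries. The megakaryocyte sum was 4.75 to 7.56 TPM in MA9-IL-34, 1.28 to 3.99 TPM in MA9-c-Kit+ and 2.31 to 3.57 TPM in MA9-c-Kit- libraries. Gp9 made up most of the MA9-IL-34 sum. Itga2b was called in no comparison, at 1.17 to 2.91, 0.42 to 2.60 and 2.08 to 2.99 TPM in the same order. Pf4 and Gp1bb were not tested. The part of these cells in the levels of the feedback genes was not tested. Without MA9-c-Kit- replicate 3, the library with high erythroid markers, the calls of Dusp6, Dusp7, Spred1, Spry2 and Etv5 against MA9-IL-34 cells were kept.

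The rest of the ERK pathway was read from 6 lists of 75 further genes. Of all tested genes, 3.38% were lower and 3.86% higher for MA9-IL-34 against MA9-c-Kit+ cells. These shares were 12.7% and 11.3% for MA9-IL-34 against MA9-c-Kit- cells. They were 9.15% and 5.66% for MA9-c-Kit+ against MA9-c-Kit- cells. In lists this short, 1 call says nothing of the list as a group. In the core cascade from Grb2 to Mapk3, 17 of 17 genes were tested, and 0 were lower and 0 higher for MA9-IL-34 against MA9-c-Kit+ cells, with a median of 0.09. Mapk3, which encodes ERK1, was at 153.78, 129.23 and 163.38 TPM in MA9-IL-34 and 92.70, 97.98 and 87.98 TPM in MA9-c-Kit+ replicates 1, 2 and 3. These groups did not overlap, yet Mapk3 did not reach the 2-fold minimum. In MA9-c-Kit- replicates 1, 2 and 3 it was at 137.27, 149.49 and 112.81 TPM, which overlapped MA9-IL-34 (log2 difference 0.16). MA9-c-Kit+ was thus the lowest group. Against MA9-c-Kit- cells, the adaptor Gab2 and the MEK gene Map2k1 were lower in MA9-IL-34 cells (-1.88 and -1.08), and Gab2 was lower in MA9-c-Kit+ cells (-1.37). Map2k1 joined it there without MA9-c-Kit- replicate 3 (-1.02) or MA9-c-Kit+ replicate 2 (-1.11).

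Of 13 RAS brakes and scaffolds, 1 was lower for MA9-IL-34 against MA9-c-Kit+ cells and 0 were higher. It was Rasa2, a RAS inactivator, at 4.41, 4.94 and 5.15 TPM in MA9-IL-34 and 14.89, 10.21 and 9.65 TPM in MA9-c-Kit+ replicates 1, 2 and 3 (log2 fold change -1.09, adjusted p = 0.00453, limma). Its MA9-IL-34 levels overlapped those of MA9-c-Kit- cells, at 4.73 to 5.34 TPM. Against MA9-c-Kit- cells the counts were 4 lower and 1 higher in MA9-IL-34 cells, and 4 lower and 2 higher in MA9-c-Kit+ cells. The RAF inhibitor Pebp1 was higher in both (1.38 and 1.26), and the ubiquitin ligase Cblb was lower in both (-2.32 and -2.27). The list's median was -0.018 for MA9-IL-34 against MA9-c-Kit+ cells.

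Among 7 kinases that ERK phosphorylates, 1 was higher for MA9-IL-34 against MA9-c-Kit+ cells and 0 were lower. Rps6ka2, a ribosomal S6 kinase, was at 49.58, 36.05 and 47.63 TPM in MA9-IL-34 and 13.90, 22.35 and 7.36 TPM in MA9-c-Kit+ replicates 1, 2 and 3, without overlap (log2 fold change 1.66, adjusted p = 0.0136, limma). It was also higher than in MA9-c-Kit- cells (1.93), and the median of the list was 0.034 for MA9-IL-34 against MA9-c-Kit+ cells. Rps6ka4 and Mknk1 were lower than in MA9-c-Kit- cells, by -1.90 and -1.03 in MA9-IL-34 and by -1.36 and -1.15 in MA9-c-Kit+ cells.

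Of 10 other MAP kinase phosphatases 7 were tested, and 1 was lower and 0 higher for MA9-IL-34 against MA9-c-Kit+ cells, with a median of -0.26. Against MA9-c-Kit- cells 3 were lower and 1 higher in MA9-IL-34 cells, and 3 were lower and 0 higher in MA9-c-Kit+ cells. Dusp3, a small phosphatase active on ERK and JNK, went down in each comparison, from 59.17, 41.44 and 36.30 TPM in MA9-c-Kit- to 10.66, 10.01 and 14.07 TPM in MA9-c-Kit+ and 2.61, 1.38 and 0.68 TPM in MA9-IL-34 replicates 1, 2 and 3. Its log2 fold changes were -2.36 for MA9-IL-34 against MA9-c-Kit+ (adjusted p = 0.00088, limma) and -1.87 for MA9-c-Kit+ against MA9-c-Kit- cells (adjusted p = 0.00143, limma). Dusp1, an immediate early phosphatase, was at 594.89, 280.89 and 153.37 TPM in MA9-c-Kit- libraries, against 14.09 to 52.88 TPM in MA9-c-Kit+ and 13.39 to 90.29 TPM in MA9-IL-34 libraries, and was lower in both (-3.25 and -2.66). Dusp16, which acts on JNK, was lower in both as well (-1.33 and -1.58), and without MA9-c-Kit- replicate 3 it did not pass the filter. Ptpn7, a phosphatase of blood cells that binds ERK, was higher for MA9-IL-34 against MA9-c-Kit- cells (1.23), at 190.77 to 233 TPM against 86.76 to 97.91 TPM. Dusp2, Dusp9 and Dusp10 passed in no comparison, and Dusp8, Ptpn5 and Ptprr were not tested.

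Of 10 other Sprouty, Spred and ETV or ELK genes 6 were tested. Elk3, an ETS factor that ERK phosphorylates, was at 107.09, 80.27 and 94.21 TPM in MA9-c-Kit-, 44.83, 40.13 and 44.30 TPM in MA9-c-Kit+ and 19.60, 16.33 and 19.24 TPM in MA9-IL-34 replicates 1, 2 and 3, without overlap. It was lower for MA9-IL-34 against MA9-c-Kit+ cells (-1.19, adjusted p = 0.000505, limma), the 1 gene called of the 6. Against MA9-c-Kit- cells 2 were lower in MA9-IL-34 cells, Elk3 (-2.28) and Spred3 (-1.002), and Elk3 was the 1 gene lower in MA9-c-Kit+ cells (-1.10). Spred3 fell short of the minimum without MA9-c-Kit- replicate 3 (-0.90), its levels were 2.42 TPM or less, and the median for MA9-IL-34 against MA9-c-Kit+ cells was -0.40. Etv3, Etv6, Elk1 and Elk4 passed in no comparison. Spry3 and Etv2 were listed at 0 in all libraries, Spry4 reached at most 0.15 TPM and Etv1 at most 0.32 TPM.

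The last list held 18 genes from expression signatures of MEK activity in human cancer cells, of which 13 were tested. For MA9-IL-34 against MA9-c-Kit+ cells 4 were lower and 0 higher, against 3.38% and 3.86% of all tested genes, with a median of -0.41. Ccnd1, which encodes cyclin D1, was at 0.65, 0.71 and 0.52 TPM in MA9-IL-34 and 20.96, 21.07 and 31.28 TPM in MA9-c-Kit+ replicates 1, 2 and 3, without overlap (-3.94, adjusted p = 5.92e-05, limma). The others were Pros1 (-2.65), Lgals3 (-1.86) and Epha2 (-1.40), which encode protein S, galectin-3 and an ephrin receptor. Of the 13 tested genes, 9 had a log2 fold change below 0 here and the rest were above 0. Ccnd1, Pros1 and Epha2 were below 1 TPM in all MA9-IL-34 libraries and passed the filter through the other groups only. Lgals3 and Epha2 were also lower for MA9-c-Kit+ against MA9-c-Kit- cells (-3.89 and -3.24). Against MA9-c-Kit- cells, 6 were lower and 2 higher in MA9-IL-34 cells, and 5 were lower and 3 higher in MA9-c-Kit+ cells. Ccnd1 was among the latter 3 (1.99), against 3.00, 5.30 and 8.83 TPM in the MA9-c-Kit- libraries.

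**Figure D4:**
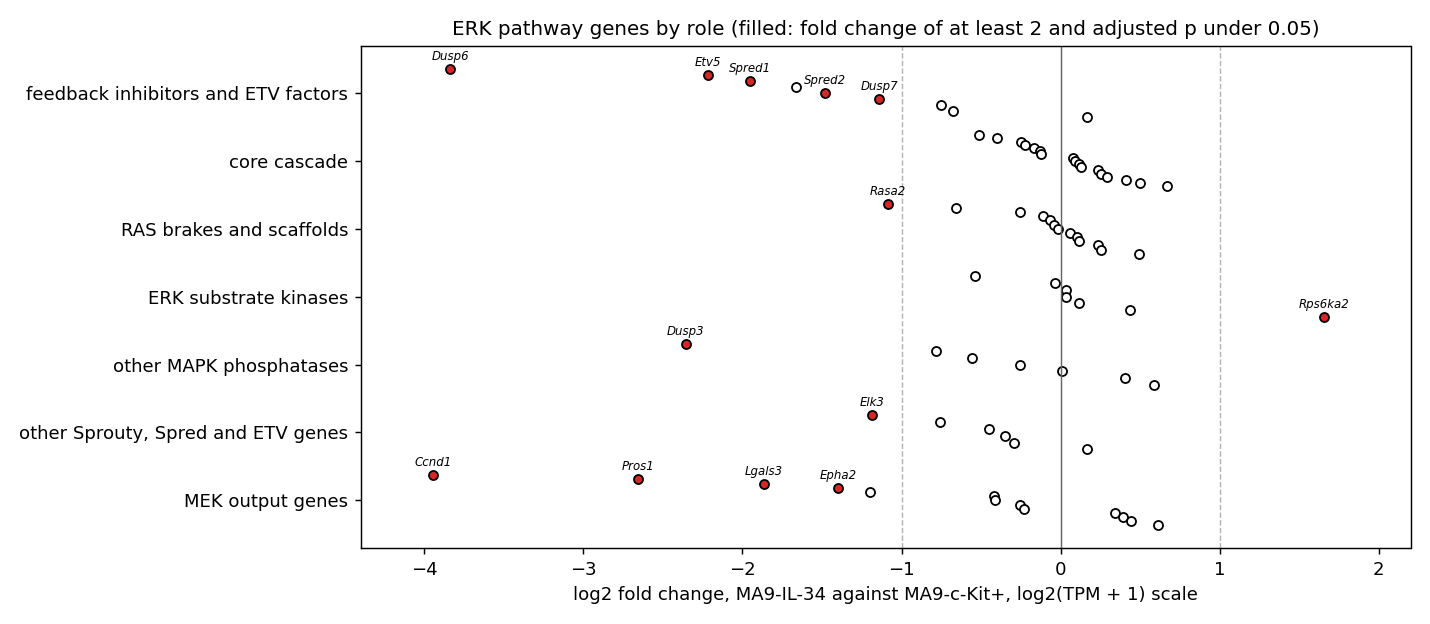
Log2 fold changes for MA9-IL-34 against MA9-c-Kit+ cells on the log2(TPM + 1) scale for the tested feedback genes and ETV factors and the 6 lists of the pathway, 1 point per gene, spread vertically within a row for legibility. Filled and named points passed the test and dashed lines mark a 2-fold change. The core cascade had 0 called genes and the feedback genes had 5 lower.

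Genes whose pattern was most like that of each called member were found by Pearson correlation of log2(TPM + 1) over the 9 libraries, which fall into 3 groups, so that r mostly describes the group levels. For Dusp6 the 5 closest were Lmo1 (0.9972), Mecom (0.9953), Znf41-ps (0.9953), Mef2c (0.9951) and Map3k20 (0.9933). Znf41-ps and Mef2c were also among the 5 closest to Spred1, at 0.9818 and 0.9797, with AC154492.2 (0.9899), Hoxb3 (0.982) and Zfp326 (0.9793). Dusp7 was closest to Tpm4 (0.9964), Txndc5 (0.9956), Unc93b1 (0.9931), Smox (0.9908) and Usf1 (0.9907). Spred2 was closest to Lhfpl2 (0.9671), Sox12 (0.9656), Gm29247 (0.962), Mapk8 (0.9552) and Gcat (0.953). For Etv5 they were Yeats4 (0.9822), Chchd10 (0.9706), D730001G18Rik (0.9678), Tut4 (0.9618) and Ptch1 (0.9598).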

How the data were processed

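RNA of sorted leukemia cells was sequenced from TruSeq v2 libraries per the labels, while the article names a microarray. The labels were followed. The authors deposited 1 table of TPM values whose header names no unit, and the column sums are nearly equal, as TPM would be. The aligner, annotation and genome build are not given in the sources used here. Columns left unmapped numbered 0, and the column of MA9-c-Kit- replicate 3, which lacks the minus sign, was assigned as the only one left of its number.

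The filter asked for 1 TPM or more in 3 or more libraries. With limma 3.58.1 (R 4.3.3), 3 group means of log2(TPM + 1) were fitted over all 9 libraries under a trended prior variance, with Benjamini-Hochberg adjustment within each of 3 comparisons. Thresholds followed the article. The steps were tested on simulated data. Alternatives were other filters, pseudocounts, scalings, fits and prior variance, no minimum fold, the replicate block and each library left out. The members and lists were chosen with earlier results of these data known. The genes named are the members, up to 4 called genes per list and comparison, every gene of the lists of other phosphatases and other Sprouty, Spred and ETV genes, the 5 most alike genes per called member, Kit and markers. Mapk3 was chosen after its values were seen, and a few genes are not reported here.

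Coordinates were taken from GENCODE M21 on GRCm38 by Ensembl identifier (55450 of 55536 matched). The CArG box was added to the motif search after the sequences were read. Deviations from the group means of libraries with the same number correlated at 0.202, 0.239 and 0.443 for MA9-c-Kit+ against MA9-c-Kit-. Libraries with different numbers gave -0.324 to 0.159. Pairing by number is thus possible for these groups, but no label gives it and so few libraries cannot settle it. The main fit does not use it. For MA9-IL-34 libraries the values were -0.15, -0.279 and -0.0946 (MA9-c-Kit+) and -0.000871, -0.0727 and -0.08 (MA9-c-Kit-).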

Additional observations from a re-analysis of the deposited data

How the results depend on the processing

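Members called for MA9-IL-34 against MA9-c-Kit+ cells numbered 5 with each library left out. Without MA9-c-Kit+ replicate 2, Etv4 passed in place of Dusp7. Leaving out libraries gave 5 to 6 calls for MA9-IL-34 against MA9-c-Kit- cells and 1 to 5 for MA9-c-Kit+ against MA9-c-Kit- cells (5 without MA9-c-Kit+ replicate 2, 2 without MA9-c-Kit- replicate 3). Over all genes the ranges were 633 to 1130 (633 without MA9-IL-34 replicate 3, against 993 with all), 2833 to 3336 and 1590 to 2216. With no minimum fold, 1772, 6864 and 5252 genes were called in the same order of comparisons, and 3 members in the last. The difference of Dusp6 for MA9-c-Kit+ against MA9-c-Kit- cells turned sign with median-of-ratios scaling (-0.037), without mitochondrial genes (-0.0037) and with a library left out (-0.13 to 0.10), and passed in none of these. The causes were not tested. In the fit paired by replicate number as a block, 5, 6 and 1 members were called, against 7.34%, 24.2% and 15.1% of all genes, and Dusp5 joined those lower for MA9-IL-34 against MA9-c-Kit- cells. The block changed no other member's call. With the MA9-IL-34 libraries left out of that fit, an alternative added after seeing the data, 1 member was called. TPM keeps no depth, so its limit on Dusp4, Etv4 and other genes near 0 is unknown. The values of pathway and marker genes without MA9-c-Kit+ replicate 2 or MA9-c-Kit- replicate 3 were also added after seeing the data.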
